A study of Bos taurus with 21 samples.

Results

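The members of the miR-17-92 and miR-106b-25 microRNA (miRNA) clusters, together with miR-92b, were described in extracellular vesicles (EVs) of serum, small membrane-wrapped particles shed by cells. Members were the table rows named bta-miR-17, bta-miR-18a, bta-miR-19a, bta-miR-19b, bta-miR-20a, bta-miR-92a, bta-miR-92b, bta-miR-25, bta-miR-93 or bta-miR-106b, with or without an arm suffix. Of these 10 names, 9 were present and miR-18a had no row. Both arms of miR-17 were listed, so there were 10 member rows among 298 rows with a known bovine miRNA name and 847 rows in all. The other 549 rows carry only numbers.

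The series compared serum EVs of 3 groups of 7 cows: healthy cows as controls, cows with subclinical mastitis (inflammation of the udder that shows no outward sign) and cows with clinical mastitis, in which the signs are visible. No treatment, breed, age, stage of lactation or pathogen was given in the labels, which name each sample as 1 cow's serum. Values are a signal in reads per 1000000, scaled by the authors separately for known and numbered rows, so a member's signal is relative to the known miRNAs of its library. Shares are given here of the summed known reads, which were a little above the total that the signal was scaled to. EVs in serum come from many cell types, so a lower signal from fewer cells of a type and one from less RNA per cell cannot be told apart.

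Both clusters are made as long primary transcripts that are cut into several miRNAs. The miR-17-92 cluster is known in mammals as a target of MYC and E2F factors and acts in cell growth and in B cell development. The miR-106b-25 cluster is a paralogue that lies within the replication gene MCM7. Their products fall into families with a common seed, the stretch that pairs with targets: miR-17, miR-20a, miR-93 and miR-106b in one, miR-19a and miR-19b in another, miR-18a in its own, and miR-25, miR-92a and miR-92b in another. miR-25, miR-92a and miR-93 are also known as abundant miRNAs of blood cells.

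In the RefSeq gene table of cattle, MIR17, MIR18A, MIR19A, MIR20A, MIR19B and MIR92A-1 follow each other in that order, and MIR106B, MIR93 and MIR25 follow each other and overlap MCM7. MIR92B has no cluster member beside it. Second copies, MIR92A-2 and MIR19B-2, lie between MIR363 and MIR20B in a further paralogous cluster that also holds MIR18B and MIR106A. The table lists 1 row each for miR-92a and miR-19b, so their signal cannot be assigned to one of these loci.

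The libraries differed widely in depth, taken here as the number of known reads. Within each library and block of rows, the signals were whole multiples of 1 step, taken here as the signal of 1 read. On that reading the known reads numbered 3015 ± 1621 for the healthy group, 16578 ± 9423 for the subclinical and 9255 ± 11944 for the clinical group (SD, n = 7 each). The medians were 2190, 15960 and 3388, and without clinical 7 the clinical mean was 5036 ± 4659 (SD, n = 6). The range over the 21 libraries was 1371 to 34565, and 1 known read was worth from 29.6 to 750.8 units of signal. The 11 libraries under 5000 known reads held reads of 3 to 7 of the 10 member rows, with a median of 5, and 6 of them were from healthy cows. The 10 deeper libraries held 7 to 9 member rows, with a median of 7.5, and 6 of them were from subclinical cows. Depth in known reads therefore moved with the groups, and its part in the differences below was not tested. Numbered reads did not follow that order. They were 27136 ± 6643, 26825 ± 3645 and 42325 ± 5757 in the healthy, subclinical and clinical groups (SD, n = 7 each).

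Among the rows of each cluster, 1 row made up most of the reads pooled over the 21 cows. miR-25 gave 3974 of the 6620 member reads (60.03%, 95% exact binomial interval 58.8 to 61.2%), and miR-92a gave 1420 (21.5%, interval 20.5 to 22.5%). By mean signal over the 21 cows, miR-25 was number 10 and miR-92a number 21 among the 298 known rows. The next members were miR-19b at number 37, miR-17-5p at 42, miR-93 at 51 and miR-19a at 58, while miR-92b, miR-20a, miR-17-3p and miR-106b ranked 89, 128, 161 and 181. Within the healthy, subclinical and clinical groups miR-25 was number 13, 9 and 10, miR-92a 24, 19 and 26, miR-17-5p 45, 47 and 32, and miR-17-3p 171, 269 and 100. Intervals here pool reads over cows and leave out the spread between cows. Per cow, the share of miR-25 among member reads had an SD of 10.5 points (n = 21). Copies made by PCR were not told apart, so counting error may be understated too.

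**Figure D1:**
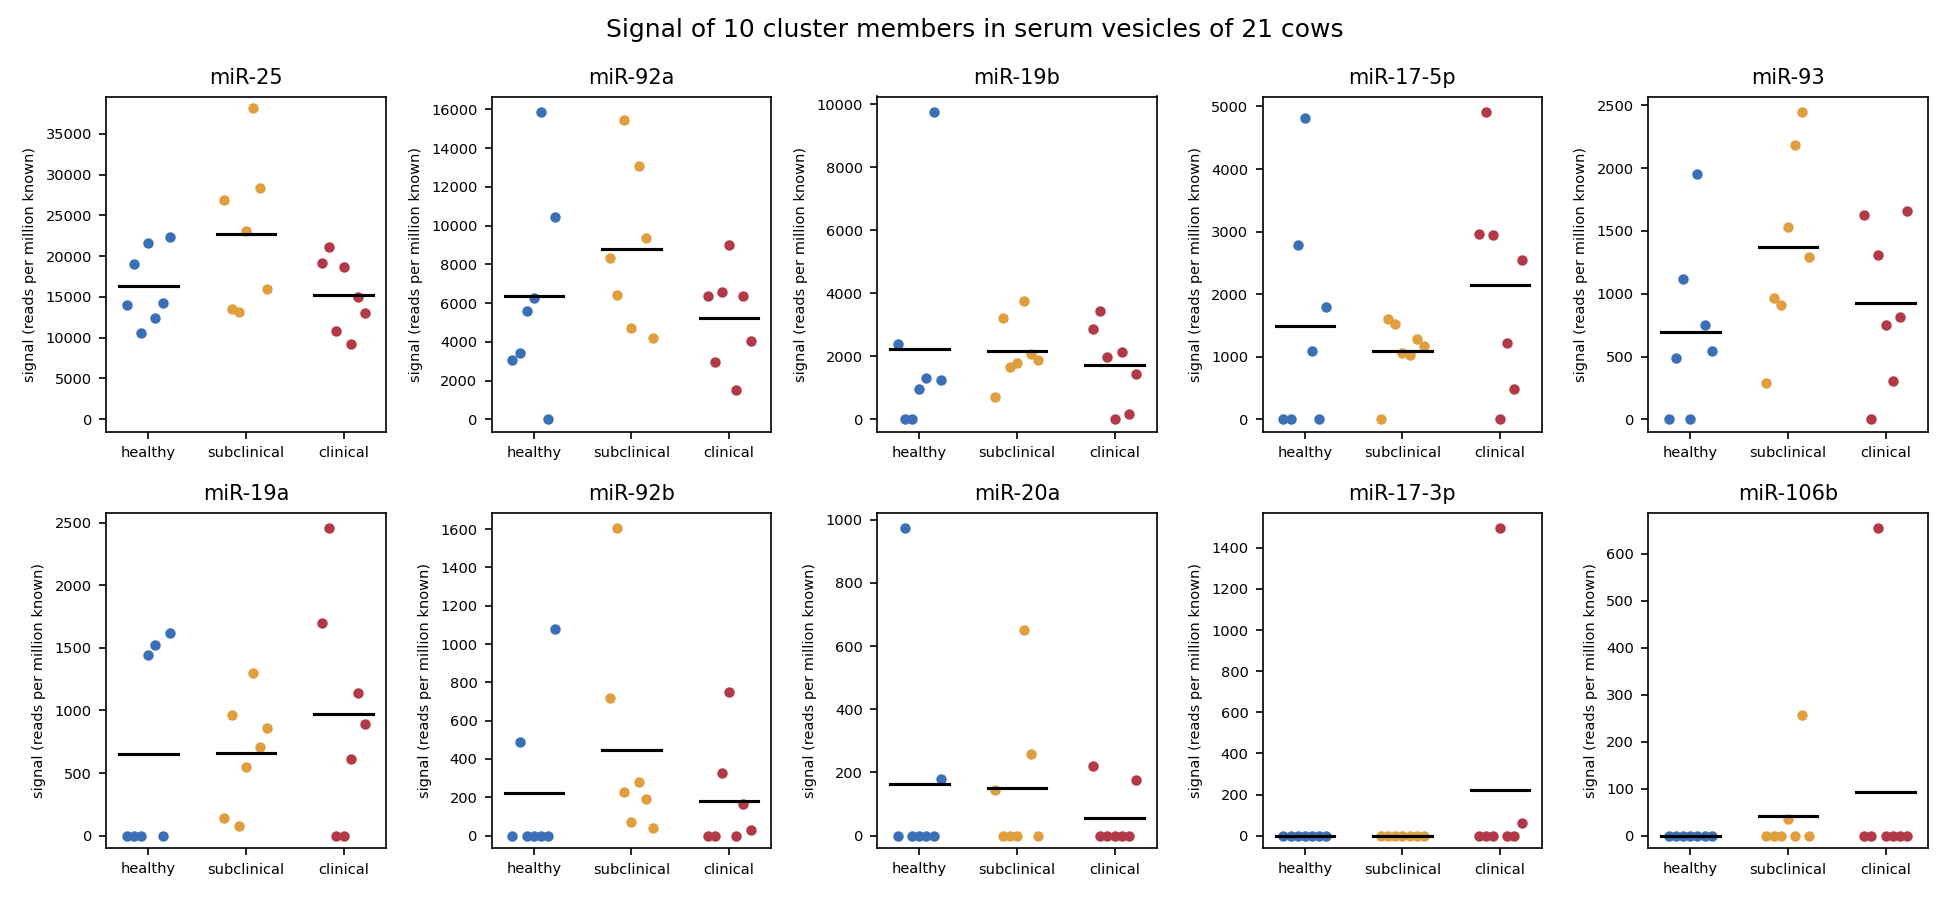
Signal of the 10 member rows (y axis, reads per 1000000 known miRNA reads, its own scale in each panel) in each cow by group (x axis). Points are cows and black lines are the means of 7 cows. miR-25 was at 9205 or above in each of the 21 cows, while miR-17-3p had reads in 2 cows and miR-106b in 3, and the 3 groups overlapped in each panel.

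The miR-106b-25 cluster was seen almost wholly as miR-25. miR-25, which in mammals targets regulators of growth arrest and of calcium handling, supplied 3974 of the 4263 reads of the cluster (93.2%, interval 92.4 to 94.0%). Its share ran from 84.6 to 100% over the 21 cows, with medians of 97.5% in healthy, 93.5% in subclinical and 94.8% in clinical cows. miR-93, a member of the miR-17 seed family, supplied 282 reads and was found in 18 cows. miR-106b, of the same family, supplied 7 reads in 3 cows.

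The signal of miR-25 in healthy cows was 10591 at the lowest, 14264 at the median and 22342 at the highest. In subclinical cows it was 13156, 23094 and 38144. In clinical cows it was 9205, 14979 and 21130. Subclinical cows 1, 4, 5 and 6 stood above the whole healthy range, while the other 3 of that group lay inside it, so the groups overlapped. The group means were 16324 ± 4647, 22726 ± 9214 and 15294 ± 4522 (SD, n = 7 each), and all 7 clinical cows were below the subclinical mean.

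Groups were compared on log2(signal + 1) by limma, with its intensity trend, fitted to all 598 rows that reached a signal of 1 in at least 7 cows, with Benjamini-Hochberg adjustment over those rows and a call at an adjusted p under 0.05. For miR-25, the log2 change from healthy to subclinical cows was 0.43 ± 0.25 (SE, 95% interval -0.10 to 0.95) with an adjusted p of 0.448 from limma. From subclinical to clinical cows it was -0.53 ± 0.25 (limma, adjusted p = 0.395; unadjusted p = 0.0502). From healthy to clinical cows it was -0.10 ± 0.25, with an interval from -0.63 to 0.43 and an adjusted p of 0.977 from limma. None of these differences passed the threshold.

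The deposited scale hides how much of each library the known miRNAs made up. Known reads were 11.2 ± 9.1% of the known and numbered reads for healthy, 35.2 ± 13.97% for subclinical and 15.9 ± 17.9% for clinical cows (SD, n = 7 each). Summed numbered reads exceeded their scaling total by more than known reads did. In healthy 7 these were 13033 against 11330, beside 5706 against 5550. Known shares are therefore lower than they would be against the scaling totals, and the cause of the excess was not tested. On 1 scale for both blocks, a choice made after seeing the data, miR-25 had 602, 1370 and 6617 reads per 1000000 at the lowest, median and highest healthy cow. It had 1625, 7190 and 17651 in subclinical cows and 555, 938 and 6749 in clinical cows. Most subclinical cows were then high and most others low, but healthy 7, clinical 1 and clinical 7, which had the largest known shares of their groups, exceeded the lowest subclinical cow, as did healthy 5 and clinical 6, and healthy 7 and clinical 7 also exceeded the next 2.

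On that scale the log2 change of miR-25 was 2.27 ± 0.60 (SE) from healthy to subclinical cows, which passed the threshold (limma, adjusted p = 0.0496), beside a median change of 2.73 over the 131 known rows tested. From subclinical to clinical cows it was -2.21 ± 0.60 (limma, adjusted p = 0.0270), beside a median of -2.09. On that scale miR-25 thus moved about as far as known rows did at the median. On the deposited scale it moved less, 0.43 beside a median of 2.23 and -0.53 beside -1.64. Those medians include rows at 0 in many libraries, while miR-25 had reads in all cows. With rows in at least 14 cows they were 0.37 and -0.11. On 1 scale, leaving out 1 library at a time kept the call from healthy to subclinical cows in 7 of 21 fits. Adjusted p ran from 0.00470 to 0.102 in limma. The call from subclinical to clinical cows was kept in 14 of 21, with adjusted p from 0.00659 to 0.0793 in limma.

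**Figure D2:**
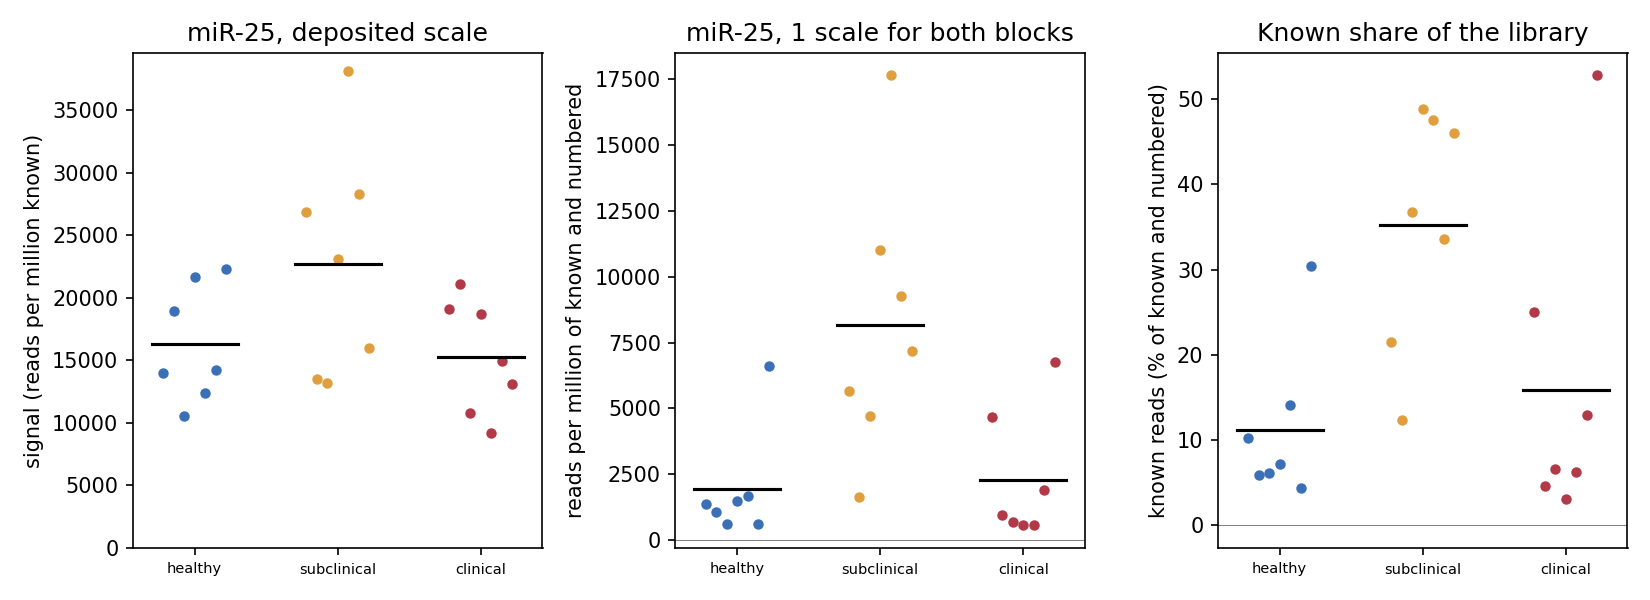
miR-25 in each cow as deposited (left, reads per 1000000 known), on 1 scale for known and numbered reads (middle, reads per 1000000 of both), and the known share of each library in percent (right). Points are cows and black lines are the means of 7 cows; the subclinical mean was 22726 against 16324 in healthy cows on the left and 8164 against 1923 in the middle.

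For miR-93 the healthy signals were 0 at the lowest, 540.5 at the median and 1957 at the highest. The subclinical ones were 287.6, 1292 and 2448, and the clinical ones were 0, 814.1 and 1658. Reads were found in 5, 7 and 6 cows, and 2 subclinical cows exceeded the healthy range while the rest overlapped with it. Its log2 change from healthy to subclinical cows was 3.22 ± 1.75 (SE), with an adjusted p of 0.398 from limma. miR-106b was at 0 in all 7 healthy cows, and 0 of their 21103 known reads puts the limit of its share at 0.0142%, taking 3 reads as the floor. It had 5 reads in 2 subclinical cows and 2 reads in clinical 3, and did not enter the fit.

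Among the miR-17-92 rows, miR-92a had the most reads. This miRNA, known in mammals for restraining the growth of blood vessels, gave 1420 of their 2321 reads (61.2%, interval 59.2 to 63.2%). Reads of miR-92a and miR-19b cannot be assigned to this cluster alone, given their second copies. Pooled over clinical cows, the share of miR-92a was 47.2%. Its share at the median cow was 66.7% in healthy, 66.0% in subclinical and 45.0% in clinical cows. The shares ran from 0 to 80.2%, from 51.7 to 89.2% and from 21.4 to 85.7%, so the 3 groups overlapped widely.

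The signal of miR-92a in healthy cows was 0 at the lowest, 5574 at the median and 15873 at the highest. In subclinical cows it was 4189, 8341 and 15437, and in clinical cows 1534, 6350 and 8975. The highest cow, healthy 5, and the lowest, healthy 6, were both healthy, and the subclinical and clinical values lay inside the range they span. The group means were 6377 ± 5288, 8793 ± 4211 and 5253 ± 2534 (SD, n = 7 each).

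Healthy 6 had no miR-92a read among its 1371 known reads, so its share could be as high as 0.219% (3 reads). In that cow, 13 of the 33 member reads were miR-19b. The log2 change of miR-92a from healthy to subclinical cows was 2.14 ± 1.39 (limma, adjusted p = 0.469). Without healthy 6 it was 0.34, and from healthy to clinical cows it turned from 1.36 to -0.45. Neither comparison passed the threshold with or without that cow.

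The miR-19 pair, which in mouse lymphoma carries much of the growth effect of the cluster, was next. miR-19b had signals of 0, 1261 and 9760 at the lowest, median and highest healthy cow, 719.0, 1879 and 3759 in subclinical cows and 0, 1965 and 3440 in clinical cows. The top value was again healthy 6, where it rests on 13 reads, and the other 6 healthy cows lay at or under 2396. The means were 2241 ± 3417, 2155 ± 1017 and 1721 ± 1292 (SD, n = 7 each).

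miR-19a was at 0 in 4 healthy cows, none of the subclinical cows and 2 clinical cows. Its healthy signals were 0, 0 and 1622 at the lowest, median and highest cow, its subclinical ones 76.0, 708.6 and 1299, and its clinical ones 0, 888.2 and 2457. The healthy and subclinical means were 655.3 ± 819.0 and 656.9 ± 440.4 (SD, n = 7 each), a ratio of 1.002. miR-19b made up 391 of the 558 reads of the pair (70.1%, interval 66.1 to 73.8%), most of them from subclinical cows. Its share at the median cow with reads of the pair was 46.2% in healthy, 76.6% in subclinical and 62.5% in clinical cows, over a range of 12.5 to 100%, and miR-19a was the larger in 4 of 18 cows.

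miR-17-5p, the member that gives the largest seed family its name, was detected in 4 healthy, 6 subclinical and 6 clinical cows. Its signals were 0, 1087 and 4812 at the lowest, median and highest healthy cow, 0, 1174 and 1605 in subclinical cows and 0, 2546 and 4914 in clinical cows. Clinical cows 1, 2, 3 and 7 exceeded all subclinical cows, and the other 3 lay inside the subclinical range or at 0. The means were 1498 ± 1809, 1095 ± 531 and 2154 ± 1699 (SD, n = 7 each), and the log2 change from subclinical to clinical cows was 0.58 ± 2.34 (limma, adjusted p = 0.925).

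The 2 arms of the miR-17 hairpin were far from equal. miR-17-5p gave 308 of the 312 reads of both arms (98.7%, interval 96.8 to 99.7%). The 4 reads of miR-17-3p came from clinical 4 and clinical 7, and in clinical 4 there was no miR-17-5p read beside them. In subclinical cows 0 of 116045 known reads were miR-17-3p, so its share could be as high as 0.00259% (3 reads).

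miR-20a, of the miR-17 seed family, had 31 reads in 7 cows, and 14 of these came from subclinical 5. Its mean signals were 164.8 ± 362.9 in healthy, 150.2 ± 242.0 in subclinical and 57.1 ± 98.3 in clinical cows (SD, n = 7 each). Its median was 0 in each group, so its differences between groups rest on few cows and few reads, and the part of depth was not tested. The absence of a miR-18a row leaves the cluster with 5 of its 6 miRNAs in the table.

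miR-92b, which shares the miR-92a seed but comes from its own locus, had 36 reads in all. It was found in 2 healthy, 7 subclinical and 4 clinical cows, with 7, 25 and 4 reads. Its signals were 0, 0 and 1081 at the lowest, median and highest healthy cow, 39.2, 228.1 and 1605 in subclinical cows and 0, 29.6 and 747.9 in clinical cows. The subclinical cows were each above 0, but with 1 to 6 reads a cow, and 6 of the 7 lay inside the healthy range.

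Among the members, miR-92b had the lowest unadjusted p from healthy to subclinical cows. Its log2 change was 5.18 ± 1.99 (SE, 95% interval 1.05 to 9.30), with an unadjusted p of 0.0162 and an adjusted p of 0.198 from limma. With a pseudocount of 100 in place of 1, which weighs a library at 0 less, the change was 1.07 ± 0.68 (limma, adjusted p = 0.508). The change from subclinical to clinical cows was -3.58 ± 1.99 (limma, adjusted p = 0.489).

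Over the members, 8 rows passed the filter on low values, and miR-17-3p and miR-106b did not. From healthy to subclinical cows limma called 0 of the 8, beside 12 of all 598 rows (2.01%). From subclinical to clinical cows it called 0 of the 8, beside 24 of 598 (4.01%). From healthy to clinical cows limma called 0 of the 8 and 0 of the 598 rows (0%), of which 37 had an unadjusted p under 0.05.

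The median log2 change of these 8 was 2.76 from healthy to subclinical cows, where the 131 known rows tested had 2.23. It was -1.43 from subclinical to clinical cows, beside -1.64, and 1.43 from healthy to clinical cows, beside 0.19. With rows in at least 14 cows, the 6 members left had 2.76, -1.17 and 1.43 in that order. The 61 known rows then had 0.37, -0.11 and 0.17. With a pseudocount of 100, the 8 members had 0.98, -0.64 and 0.35, beside 0.52, -0.40 and 0.06. The distance between members and known rows thus depends on rows with libraries at 0. Each 2 of these comparisons share 1 group of cows. From healthy to subclinical cows all 8 changes were above 0. From subclinical to clinical cows 7 of 8 were below 0, with miR-17-5p the exception. No change passed the threshold in either. Over all 598 rows the median changes were 0.26 and -0.37, and signs were not counted there. With a pseudocount of 100, all 8 were again above 0 from healthy to subclinical cows, and 6 of 8 were below 0 from subclinical to clinical cows. Libraries at 0 were more frequent at low depth, and their part in these directions was not tested.

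For members with libraries at 0, the log2 change and the ratio of the mean signals can point opposite ways. That was so in 7 of the 24 member comparisons. miR-17-5p had a log2 change of 2.46 ± 2.34 from healthy to subclinical cows (limma, adjusted p = 0.665), while the mean signal was 0.731 times as high. miR-19b had 3.05 ± 1.95 (limma, adjusted p = 0.468) beside a ratio of 0.962. These ratios rest on 1 healthy cow each: without healthy 4 the ratio for miR-17-5p was 1.158, and without healthy 6 that for miR-19b was 2.18, both then in the direction of the log2 change. For miR-19a the change was 4.33 ± 2.20 (limma, adjusted p = 0.384) beside the ratio of 1.002. miR-25, with reads in all 21 cows, had the narrowest intervals and the same direction by both measures.

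**Figure D3:**
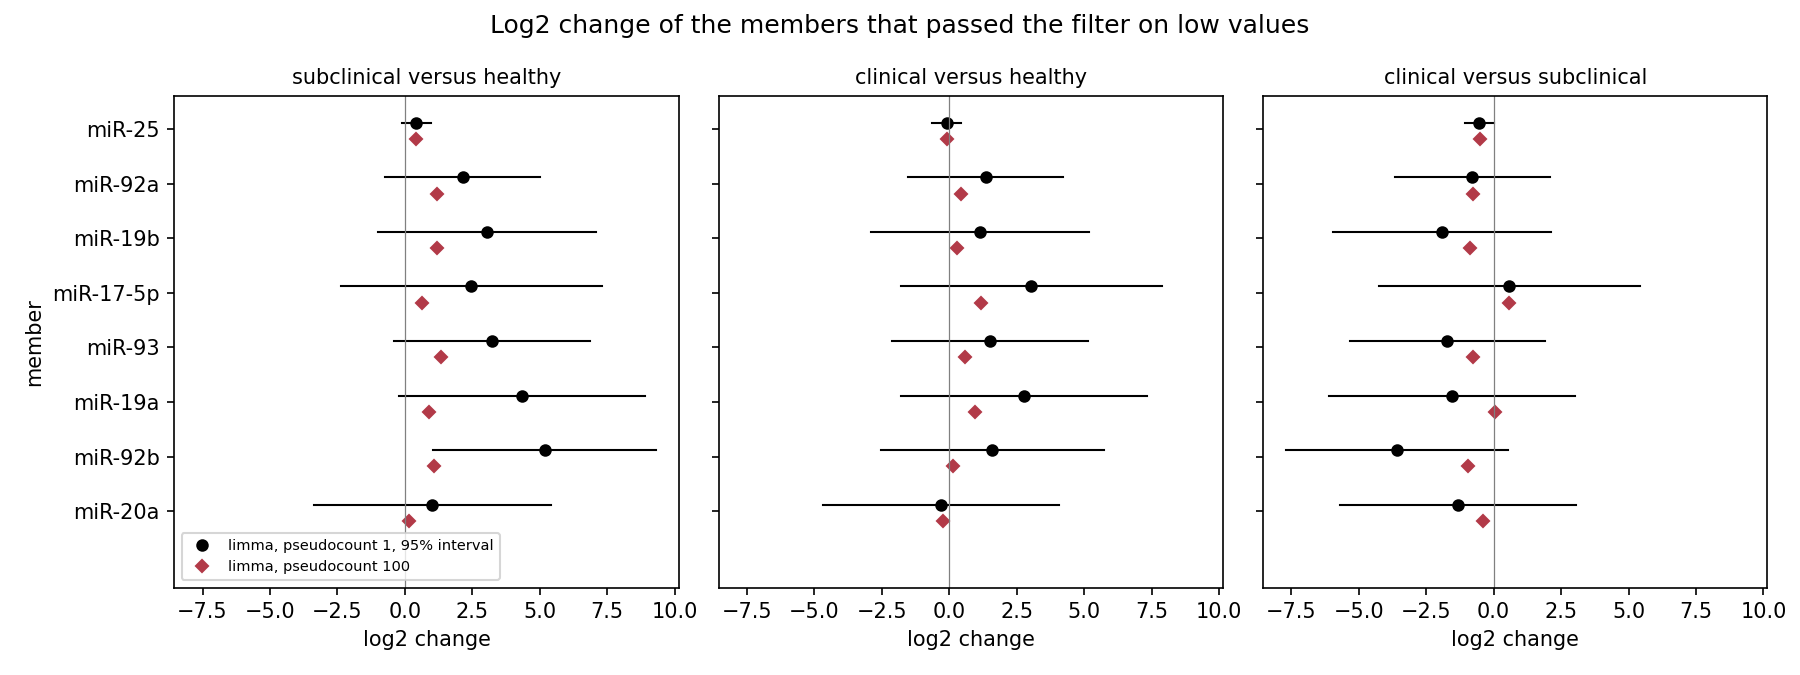
Log2 change (x axis) of the 8 members that passed the filter (y axis) in the 3 comparisons. Black points and lines are limma's estimate with a pseudocount of 1 and its 95% interval; red diamonds are the estimate with a pseudocount of 100, which lies nearer 0 for members with libraries at 0, such as miR-92b (5.18 against 1.07 from healthy to subclinical cows).

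Summed over the 10 rows, the members made up 2.71 ± 0.77% of the known reads in healthy, 3.65 ± 1.16% in subclinical and 2.61 ± 0.69% in clinical cows (SD, n = 7 each). The lowest and highest cows were at 1.86 and 3.82%, 2.48 and 5.88%, and 1.45 and 3.39%. Subclinical 5, at 5.88% and with miR-25 at 822 of its reads, and subclinical 6, at 4.37%, exceeded all healthy and clinical cows, and the other 5 subclinical cows overlapped with them. Within the sum, the make-up varied between cows: the share of miR-25 ran from 36.3 to 78.0% and that of miR-92a from 0 to 46.8%.

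**Figure D4:**
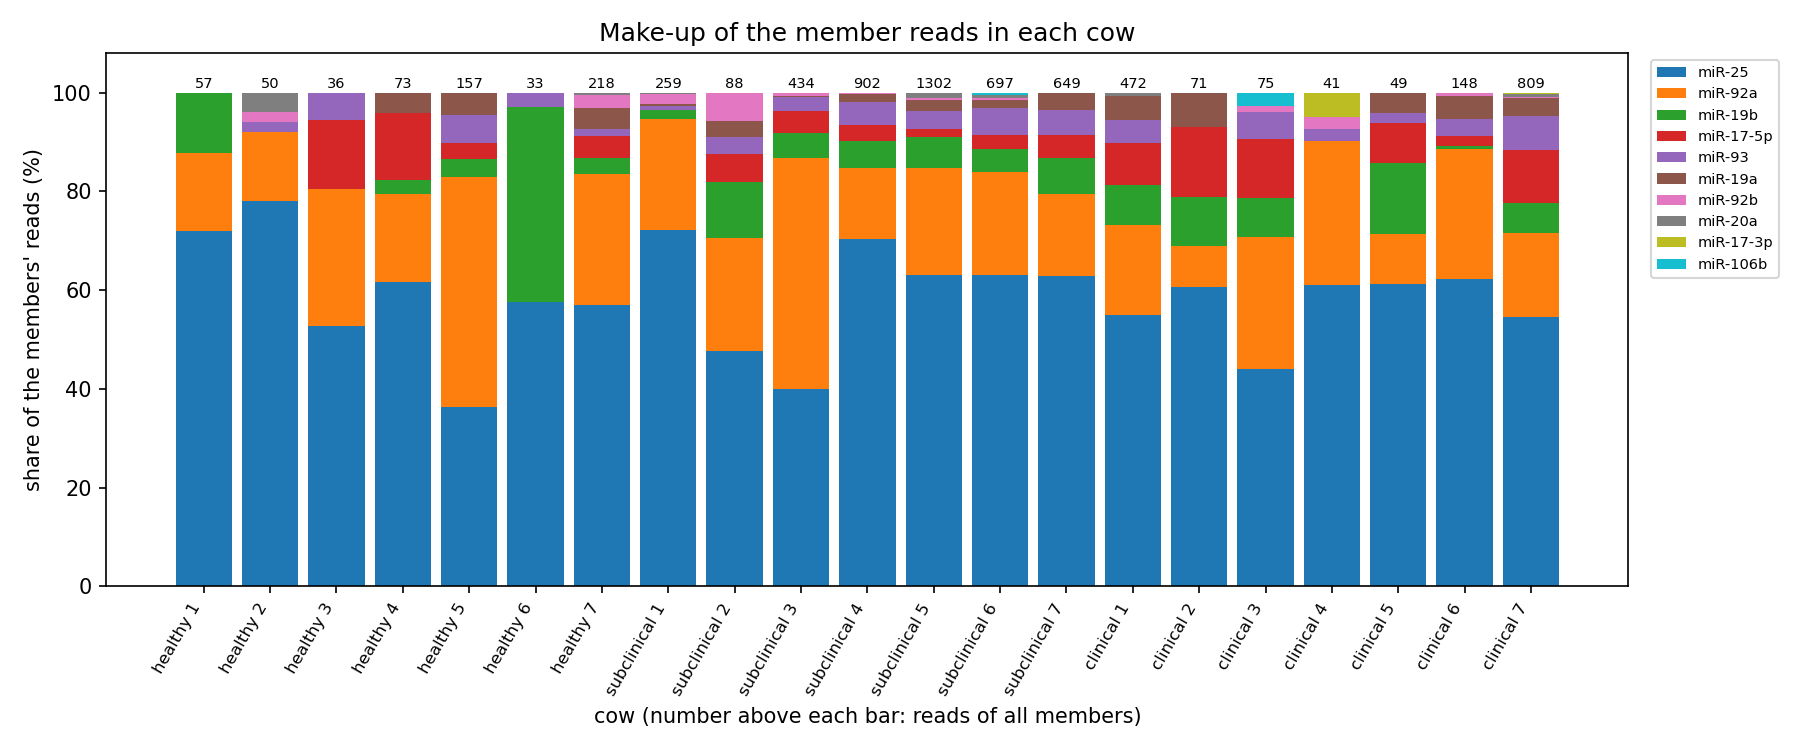
Make-up of the member reads in each cow (x axis) as percent of all member reads (y axis), with the number of member reads above each bar. Colours are the 10 member rows in order of mean signal; miR-25 ran from 36.3 to 78.0% and miR-92a from 0 to 46.8% of a bar.

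Members were also compared with each other across cows. Among the 6 members with reads in at least 14 cows there were 15 pairs, within and across the clusters, and none passed Benjamini-Hochberg adjustment over them. The closest pair was miR-17-5p with miR-19a (Pearson r = 0.59, two-sided permutation p = 0.00485, adjusted p = 0.0728; Spearman rho = 0.51, permutation p = 0.0200, adjusted p = 0.2997; n = 21). Without the 2 cows farthest from the median of miR-17-5p, r was 0.33, and rho within healthy, subclinical and clinical cows was 0.49, 0.04 and 0.61. miR-25 and miR-93, which lie side by side in MCM7, had r = 0.26 (permutation p = 0.259, adjusted p = 0.648) and rho = -0.0013 (permutation p = 0.998, adjusted p = 0.998) over the 21 cows; r was -0.31 without the 2 farthest cows, and rho within the groups was -0.56, 0.61 and -0.18. Within single groups some pairs had high values, among them miR-19a with miR-19b in subclinical cows (rho = 0.93), miR-17-5p with miR-19b in clinical cows (0.89) and miR-19a with miR-92a in healthy cows (0.87), which are picked as the highest of 45 values over 7 cows each and have no test. Counts as low as 0 to 5 reads in many cows limit these values.

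The known rows most like the 2 leading members were sought among 40 known rows outside the clusters with reads in at least 18 cows, ranked by Spearman's rho over the 21 cows. For miR-25 these were miR-29b (rho = 0.56), miR-342 (0.41) and miR-223 (0.28). For miR-92a they were miR-342 (0.60), miR-486 (0.58) and miR-191 (0.57). Because these rows were picked as the most alike and share the depth and scaling of each library, the values are descriptions.

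Of the paralogous and related miRNAs, miR-18b and miR-363 had no row, and miR-106a, miR-20b and miR-32 together had 0 to 0.183% of the known reads of a cow. miR-32, of the miR-25 seed family, was the only one to pass the filter and was not called in any of the 3 comparisons by limma. It had 2, 21 and 15 reads in the healthy, subclinical and clinical groups.

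Red blood cell miRNAs were present beside the members, and their part in the results was not tested. miR-486 had a mean signal of 8061 ± 4068 in healthy, 11983 ± 7553 in subclinical and 9012 ± 2572 in clinical cows (SD, n = 7 each). Another miRNA of red cells, miR-451, had reads in 2, 5 and 4 cows, and miR-144 had 4 reads in 2 cows, none of them clinical. The summed signal of the 3 ranged from 3850 to 15221 in healthy, 5136 to 26603 in subclinical and 6721 to 11967 in clinical cows, and 0 of its 2 tested rows were called by limma in any comparison. Over the 21 cows miR-92a had rho = 0.58 with miR-486, a row picked above as among its most alike. It was 0.45 without the 2 cows farthest from the median of miR-92a. Within healthy, subclinical and clinical cows it was 0.57, 0.68 and 0.21. miR-25 had rho = 0.17 with miR-486 over the 21 cows, and -0.50, 0.29 and 0.61 within those groups. These values are descriptions, with 7 cows a group.

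Markers of other sources differed in level but were seldom called. The 5 leukocyte rows, led by miR-223, the 3 tested platelet rows of 6, led by miR-191, and the 2 miR-126 rows of endothelium, led by miR-126-5p, had 0 calls by limma in the 3 comparisons. Their summed signals ranged from 22245 to 88925, from 5255 to 27929 and from 31782 to 396659 over the 21 cows. Of 3 hepatocyte rows, miR-122, the main liver miRNA, was lower in clinical than in subclinical cows (log2 change -8.35 ± 2.34, limma, adjusted p = 0.0446). That call was lost in 10 of 21 fits that left out 1 cow (adjusted p up to 0.126 from limma, without subclinical 3) and in 4 of 11 other settings, among them known rows alone (adjusted p = 0.0701 from limma). Its mean signal was 1090 ± 1761 in healthy, 11473 ± 9982 in subclinical and 735.5 ± 1178 in clinical cows (SD, n = 7 each). From healthy to subclinical cows miR-122 was not called (8.06 ± 2.34, limma, adjusted p = 0.0849). The mean signals of miR-122 and miR-25 were both highest in subclinical cows, the group with the highest mean number of known reads. Numbered reads were highest in clinical cows. For miR-25 that rise was not called on the deposited scale. Whether the signals are connected was not tested.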

How the data were processed

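Small RNA from serum EVs was extracted and made into TruSeq libraries, per the labels' protocols; Bowtie, edgeR and the ARS-UCD1.2 build are named without a role, per the submitters' processing notes. For trimming, counting and EV isolation, nothing is given in the sources used here. Values were deposited as a signal in reads per 1000000, scaled separately by the authors for known and numbered rows. Reads per row block were inferred from the step between values (10115 of 10115 values whole within 0.05 reads) and used for depth, shares, the 1-scale alternative and the choice of libraries of 2000 or more known reads. Because each column mixes 2 steps, most columns could not be taken as counts with a single step, so the tests on counts planned as alternatives are not reported. They had been run and seen before they were left out: on all cows a single setting called a member, miR-25, as higher in subclinical than in healthy cows, and some fits that left out 1 cow also called it. The main test, limma 3.58.1 in R 4.3.3, was two-sided with 18 residual degrees of freedom. It was checked on simulated data, where the share of false calls was above the nominal level in each comparison. It was 12.5% in clinical against healthy, 19% in subclinical against healthy and 36.2% in clinical against subclinical cows. Calls near the threshold are therefore uncertain. Of simulated 4-fold changes 43.3, 43.5 and 39.3% were recovered in that order, so an uncalled row may still differ. The simulated rows all had the same spread around their means. Each block was rescaled after many rows had been changed, which can shift unchanged rows. On average 692 to 695 rows passed the filter there, against 598 in the real data, so these rates may not hold for the real data. Correlations used 100000 permutations. Samples were grouped by the labelled condition; p-values measure the spread between these cows. The text names all members and, of each marker list, its row of highest mean and any called row. Members and lists were chosen with earlier results of these data known. No miRNA sequences or genome coordinates are used here.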

Additional observations from a re-analysis of the deposited data

Results flagged for a closer look

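In all, 7 member values stood apart from the other cows of their group by Dixon's gap test, out of 27 groups of 7 cows tested; chance flags about 1 group in 20 for normally distributed values, a rate that does not hold for rows mostly at 0, such as miR-106b and miR-17-3p. miR-19b in healthy 6 was 9760 (13 reads), against 2396 in the next cow. miR-20a was 973.7 in healthy 2 (2 reads) and 649.6 in subclinical 5 (14 reads). miR-106b was 257.7 in subclinical 6 (4 reads) and 655.1 in clinical 3 (2 reads). miR-17-3p was 1496 in clinical 4 (2 reads). The only low value was that of miR-17-5p, 0 in subclinical 1, against 1021 in the next cow. Most of these rest on 0 to 4 reads.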

How the results depend on the processing

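With the deposited scaling or median-ratio scaling, no member was called in any of these fits. The count of called rows from healthy to subclinical cows (12) was 2 with rows in at least 14 cows, 2 with known rows alone, 0 with libraries of 2000 or more known reads (58 with unadjusted p under 0.05), 6 after median-ratio scaling, 23 without the cows numbered 7 and 5 with only the 2 groups fitted; leaving out 1 cow gave 6 to 26, with 26 without healthy 7, 6 without healthy 1, healthy 4 or subclinical 6, and 7 without healthy 2 or 6, subclinical 3 or 5, or clinical 1, 2, 3 or 4. From subclinical to clinical cows (24) it was 6 with rows in at least 14 cows and 0 with known rows alone (24 with unadjusted p under 0.05); leaving out 1 cow gave 14 to 26, with 14 without subclinical 1 or 3 and 15 without subclinical 5. From healthy to clinical cows it was 0 in each fit.

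Directions of uncalled changes turned as follows. From healthy to clinical cows, miR-20a was 0.11 and miR-25 0.06 on 1 scale; miR-25 was 0.02 after median-ratio scaling and 0.01 without the cows numbered 7; with libraries of 2000 or more known reads, miR-92a was -0.64 and miR-92b -0.36. From subclinical to clinical cows, miR-17-5p was -0.70 on 1 scale and miR-19a 0.05 with a pseudocount of 100. Leaving out 1 cow, the changes from healthy to clinical cows ran from -0.16 to 2.66 for miR-19b, -0.72 to 0.06 for miR-20a, -0.20 to 0.01 for miR-25 and -0.45 to 1.88 for miR-92a, and from subclinical to clinical cows from -0.89 to 2.14 for miR-17-5p. The cause was not tested. Cow numbers follow the sample titles, and the cows titled 7 carry other numbers in the deposited columns. Cows with the same title number showed no general pairing (3 of 21 correlations over 0.1, own number closest in 6 of 42). The highest correlation was 0.31, between clinical 7 and healthy 7. With the replicate block, 0, 8 and 23 rows were called in clinical against healthy, subclinical against healthy and clinical against subclinical cows. The planned tests on counts are not reported, as the single-step check of whole reads failed for most columns. miR-17-3p, miR-20a, miR-92b and miR-106b had 4, 31, 36 and 7 reads in all, so their values rest on few reads.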
